A study of Mus musculus with 24 samples.

Results

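FPP-1746 is a cell-penetrating peptide that served in this study as the carrier for Omomyc, and the comparison described here is that of cells given the carrier alone with cells given phosphate-buffered saline (PBS), both for 3 h. The cells were T11, a claudin-low mammary tumour line of the mouse, which per the labels express a luciferase gene. They were grown for 3 days in RPMI medium with 1% FBS and then received PBS or FPP-1746 at 5 µM. The 2 groups hold 3 samples each, described by the labels as biological replicates, so that 6 of the 24 samples of the study enter. The other samples received Omomyc, an altered MYC dimerisation domain that takes up the partner MAX and blocks MYC at its DNA sites, or the fusion FPP-1746-Omomyc, at 3 h or 6 h, or PBS for 6 h. RNA integrity was 10 in all samples per the labels. The authors' table gives 1 averaged column per group, so 2 of its 8 columns carry the comparison. Single samples have no values of their own in these columns, so no error can be put on a value and no test was possible: every difference below lacks a replicate check.

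Cell-penetrating peptides are short, often positively charged sequences that cross the plasma membrane or are taken up with it. Uptake commonly begins with binding to heparan sulfate at the cell surface and goes on through endocytosis, after which the peptide must leave the endosome to act in the cytosol or nucleus. In a study of a delivered protein, cells given the carrier alone are the reference for what the carrier itself does to the transcriptome. Genes that respond quickly to changes at the membrane and in the actin skeleton are well known: serum response factor (SRF) with its actin-regulated partner drives contractile and cytoskeletal genes, and YAP with the TEAD factors drives Ctgf, Cyr61 and Ankrd1.

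The marker genes had the pattern known for claudin-low cells, with mesenchymal genes high and epithelial genes near 0. The mesenchymal and claudin-low list of 20 genes summed to 9903 FPKM with FPP-1746 and 9316 FPKM with PBS, led by the intermediate filament gene Vim at 4058 FPKM and 3693 FPKM. FPKM is the number of sequenced fragments scaled to transcript length and to library size. All 13 epithelial markers, among them Cdh1, Epcam and the tight junction claudins, were below 1 FPKM in both columns, and their sum was 0.0911 FPKM with FPP-1746 and 0.173 FPKM with PBS. All 9 endothelial markers were below 1 FPKM too, at a sum of 1.03 FPKM in each column, and so were all 11 T and B cell markers, at 0.519 FPKM with FPP-1746 and 0.528 FPKM with PBS. The macrophage list summed to 11.8 FPKM with FPP-1746 and 11.2 FPKM with PBS, nearly all of it Cd14, and 9 of its 11 genes were below 1 FPKM in both. The 7 adipocyte genes summed to 2.55 FPKM and 1.86 FPKM, nearly all Fabp4. Their part in the results below was not tested. In bulk RNA, fewer cells of a type and less RNA per cell cannot be told apart.

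The table has 23235 genes, of which 6794 are at 0 in every column. At least 1 FPKM was reached by 10061 genes with FPP-1746 and 10089 genes with PBS, and the columns summed to 494461 FPKM and 486989 FPKM, inside the range of 445657 to 594951 FPKM over all 8 columns. A rough depth was estimated from low values of long genes. FPKM times transcript length was kept where it lay from 15 to 35, and the median was taken as 1 fragment. The estimate depends on that chosen range and cannot fall outside it. By this estimate, 1 FPKM of a transcript of 2000 bases stood for about 86 fragments with FPP-1746 and 84 fragments with PBS, over the 3 replicates together. The comparison covered the 10262 genes whose FPKM averaged 1 or more across all columns, by the log2 ratio of FPKM + 1, which understates the change of low genes. A gene was called past 2-fold or past 1.5-fold by that ratio.

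The carrier column lay close to the PBS column over nearly all genes. Of 10262 genes, 33 were at least 2-fold higher with FPP-1746 (0.322%) and 30 at least 2-fold lower (0.292%), and at 1.5-fold the numbers were 56 higher (0.546%) and 40 lower (0.39%). Nearly all of the genes past 2-fold were records of small RNAs such as microRNAs and small nucleolar RNAs. Without the 140 such records, 2 of 10122 genes were at least 2-fold higher (0.0198%) and 1 at least 2-fold lower (0.00988%). At 1.5-fold, 20 were higher (0.198%) and 4 lower (0.0395%). Of these 10122 genes, 96.6% lay within 1.2-fold of PBS and 99.8% within 1.5-fold. The median log2 ratio was 0.01 with an SD across genes of 0.12, and 53.04% of genes were above 0. The SD was smaller at higher expression, from 0.15 among the 1254 genes with a mean of 1 to 3 FPKM to 0.09 among the 912 genes at 100 FPKM or more. All 4 genes called lower had a mean below 10 FPKM, while 14 of the 20 called higher had a mean of at least 10 FPKM. With a pseudocount of 5 in place of 1, the 1.5-fold rule called 10 genes higher and none lower. Against the mean of both PBS columns, which mixes 3 h and 6 h, it called 82 higher and 55 lower. With a pseudocount of 0.1 it called 35 and 22.

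The other columns give the scale. Omomyc without a carrier, set against the same PBS column, had 13 genes at least 1.5-fold higher (0.128%) and 9 lower (0.0889%), with an SD of 0.12. The fusion, also set against that column, had 1575 higher (15.6%) and 1446 lower (14.3%), with an SD of 0.68 and 36.9% of genes within 1.2-fold. PBS at 6 h against PBS at 3 h had 182 higher (1.8%) and 162 lower (1.6%), so that time in PBS separated the columns more widely than the carrier did, at an SD of 0.25. FPP-1746 at 6 h against PBS at 6 h, which uses no column of the 3 h comparison, had 9 genes higher (0.0889%) and 13 lower (0.128%).

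**Figure D1:**
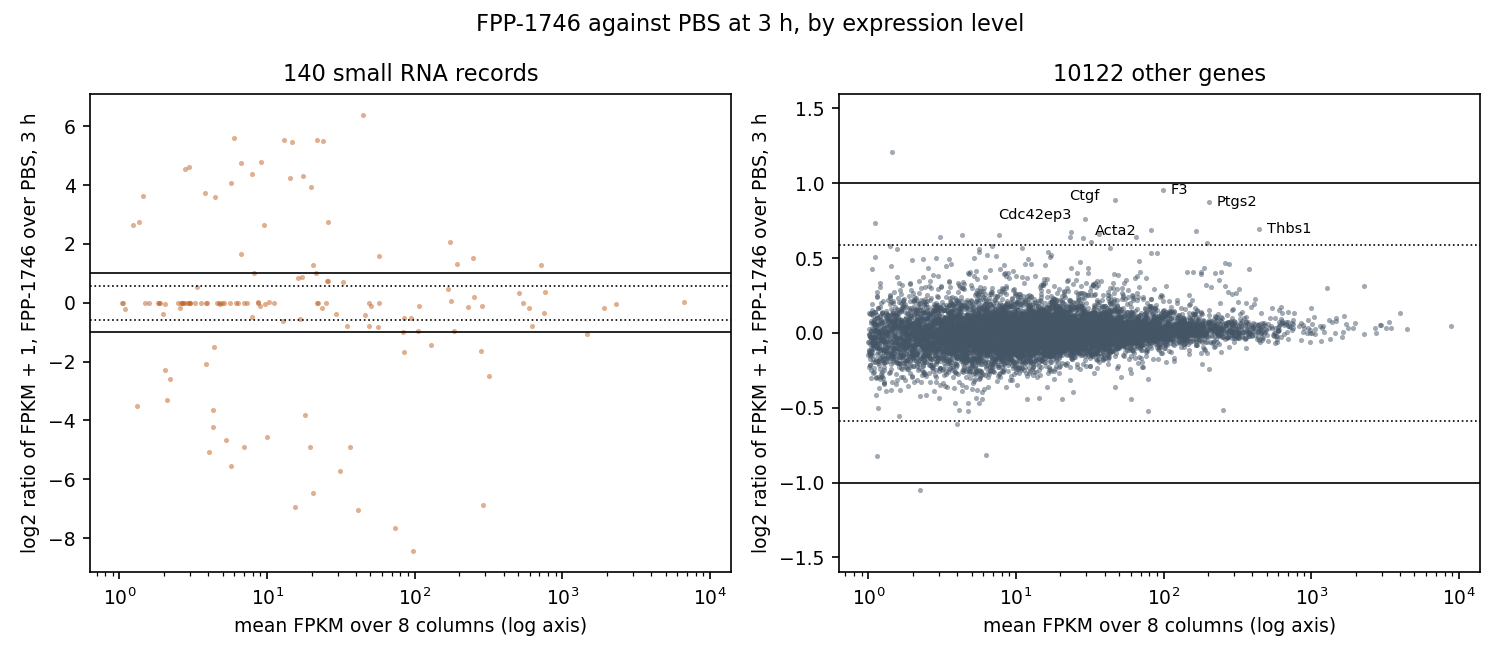
Log2 ratio of FPKM + 1, FPP-1746 over PBS at 3 h (y axis), against the mean FPKM over the 8 columns (x axis, log scale), 1 point per gene, with solid lines at 2-fold and dotted lines at 1.5-fold. The 140 small RNA records (left) spread far past 2-fold in both directions, while the 10122 other genes (right, narrower y axis that leaves out 1 gene, LOC100302567, at 3.65) lie in a band around 0 with a few higher genes such as F3, Ctgf and Ptgs2.

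The small RNA records stood apart from the other genes by how often they were listed at 0. Of the 140, 105 were at 0 in at least 1 of the 8 columns, against 3 of the 10122 other genes. A total of 60 records passed 2-fold, 31 higher and 29 lower, made up of 33 microRNAs and 27 small nucleolar RNAs, and 42 of the 60 were at 0 in FPP-1746 or in PBS at 3 h. Snord49b, a small nucleolar RNA that guides methylation of ribosomal RNA, was listed at 343 FPKM in PBS and at 0 with FPP-1746. Its neighbour Snord49a went from 200.1 FPKM in PBS to 0 with FPP-1746 at 3 h, and from 0 in PBS to 200.6 FPKM with FPP-1746 at 6 h. Snord32a was at 0 in PBS and 81.9 FPKM with FPP-1746, Snord88a at 0 and 47.6 FPKM, and Snord1b at 0 and 44.9 FPKM. The 2 times thus gave opposite directions for Snord49a. Over all 60 records, 16 also passed 2-fold in the same direction at 6 h and 8 in the opposite direction. At 6 h, 23 of all 10262 genes were at least 2-fold higher with FPP-1746 and 34 lower. Outside small RNA records these were only 2 and 3 of 10122 genes. Most genes past 2-fold at 6 h were thus small RNA records too, so nothing is read from the 16 and the 8. Mir25, Mir196b and Mir877 were all listed at 28.7 FPKM in PBS and at 0 with FPP-1746, and their annotated hairpins are 84, 85 and 85 bases long. How many fragments stand behind such values was not measured, and whether the libraries retained mature microRNAs is not given in the sources used here.

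Among microRNA records, 3 are shown, chosen after their values were seen: the lowest ratio belonged to one of them and 2 were listed at 0 in PBS and above 20 FPKM with FPP-1746 at both times. Mir1894 was at 131.7 FPKM in PBS and 0 with FPP-1746 at 3 h, with 41.7 FPKM for Omomyc and 45.5 FPKM for the fusion, and at 6 h it was at 54.1 FPKM in PBS and 0 with FPP-1746. Mir425 was at 0 in PBS at both times and at 26.4 FPKM with FPP-1746 at 3 h and 22.6 FPKM at 6 h. Mir704 was at 0 in PBS at both times and at 44.3 FPKM and 38.3 FPKM with FPP-1746. Omomyc stood at 0 at 3 h and 24.0 FPKM at 6 h for Mir425, and at 0 at both times for Mir704. The fusion stood at 0 at both times for Mir425, and at 108 FPKM at 3 h and 0 at 6 h for Mir704. For Mir1894 at 6 h, Omomyc stood at 30.9 FPKM and the fusion at 27.6 FPKM. Mir1894 and Mir704 have a locus shared with another gene. The mature sequences below are those of RefSeq (GRCm38.p6), read 5′ to 3′, with the seed, bases 2 to 8, in capitals. No seed is shared among the 5.
mmu-miR-1894-5p, chr17:35917899-35917920, plus strand: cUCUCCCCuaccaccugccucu
mmu-miR-1894-3p, chr17:35917938-35917959, plus strand: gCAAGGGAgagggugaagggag
mmu-miR-425-5p, chr9:108568789-108568811, plus strand: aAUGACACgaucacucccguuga
mmu-miR-425-3p, chr9:108568830-108568850, plus strand: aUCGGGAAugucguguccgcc
mmu-miR-704, chr6:47803590-47803610, minus strand: aGACAUGUgcucugcuccuag

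Outside small RNAs, the genes past 2-fold were all low or unannotated. LOC100302567, a predicted gene with a locus shared with another gene, was listed at 0 in PBS, Omomyc and the fusion at 3 h and at 11.5 FPKM with FPP-1746. At 6 h it was at 0 in PBS, 14.7 FPKM with Omomyc, 25.8 FPKM with FPP-1746 and 15.4 FPKM with the fusion. Snhg9, a host transcript of a small nucleolar RNA, stood at 1.11 FPKM in PBS and 3.87 FPKM with FPP-1746, and at 2.01 FPKM and 0 at 6 h, the opposite order. Gm9781, a predicted gene, stood at 3.41 FPKM in PBS and 1.13 FPKM with FPP-1746, with 6 h values of 2.39 FPKM and 2.60 FPKM. All 3 have a locus that the table shares with a neighbour, so their fragments may be mixed with those of other genes. With a pseudocount of 5, Snhg9 (0.54) and Gm9781 (-0.46) did not pass even 1.5-fold.

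No annotated gene averaging 10 FPKM or more reached 2-fold. F3, which encodes tissue factor, the cell-surface starter of coagulation (chromosome 3, 121426455 to 121437970, mm9), stood at 100.2 FPKM in PBS and 195 FPKM with FPP-1746, a ratio of 1.95. Ctgf, which encodes a matricellular protein and is a classical YAP target (chromosome 10, 24315248 to 24318488), stood at 58.5 FPKM and 109 FPKM, a ratio of 1.87. Ptgs2, the inducible cyclooxygenase of prostaglandin synthesis, stood at 68.9 FPKM and 127 FPKM, a ratio of 1.85. These 3 had the largest log2 ratios among genes averaging 10 FPKM or more, at 0.95, 0.89 and 0.87.

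Thbs1, which encodes thrombospondin-1, an activator of latent TGF-beta (chromosome 2, 117937658 to 117952869), was the most abundant of the group, at 551 FPKM in PBS and 892 FPKM with FPP-1746 (log2 ratio 0.69). Cdc42ep3, an effector of the actin-regulating GTPase CDC42, stood at 31.3 FPKM and 53.9 FPKM (0.76). Both were thus above PBS by less than F3, Ctgf and Ptgs2 were.

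Acta2, smooth muscle alpha-actin (chromosome 19, 34315581 to 34329826), stood at 62.2 FPKM in PBS and 101 FPKM with FPP-1746 (0.69). Tagln, the actin-binding protein transgelin, stood at 3.12 FPKM and 5.48 FPKM (0.65), and its locus in the table is shared with another gene. Filip1l, a filamin-interacting protein, stood at 33.2 FPKM and 52.1 FPKM (0.63), also with a shared locus. Itga5, the integrin subunit that binds fibronectin, stood at 56.4 FPKM and 88.5 FPKM (0.64).

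The other annotated genes past 1.5-fold included secreted regulators and a phosphatase. Inhba, the activin A subunit, stood at 16.0 FPKM in PBS and 26.2 FPKM with FPP-1746 (0.68). Edn1, the vasoconstrictor endothelin-1, stood at 10.2 FPKM and 16.7 FPKM (0.66). Dusp1, a phosphatase that switches off MAP kinases, stood at 10.8 FPKM and 17.7 FPKM (0.66). Metrnl, a secreted meteorin-like factor, stood at 25.5 FPKM and 40.4 FPKM (0.64), Tmem171 at 38.8 FPKM and 59.7 FPKM (0.61), and Asb5, which encodes an ankyrin repeat and SOCS box protein, at 232 FPKM and 352 FPKM (0.60). Of the 20 genes, 3 were predicted or unnamed transcripts, 2 of them Gm1673 (0.73) and 1810044D09Rik (0.64) and the other LOC100302567. The nearest gene inside the 1.5-fold rule was Asb5 at 0.60, and the nearest outside were Gm20571 and Rusc2 at 0.58 each, followed by the actin-bundling gene Lima1 at 0.57 and the cytolinker gene Dst at 0.56. With a pseudocount of 5, 10 of the 20 no longer passed 1.5-fold: Inhba, Dusp1, Edn1, Metrnl, Filip1l and Tmem171 at 0.51 to 0.58, Snhg9 at 0.54, Tagln at 0.37, 1810044D09Rik at 0.31 and Gm1673 at 0.24. Against the mean of both PBS columns, Acta2 and Tagln no longer passed, at 0.43 each, nor did Gm1673 at 0.39 and 1810044D09Rik at 0.10.

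The promoters of 12 of the 17 annotated higher genes are in the RefSeq table (GRCm38.p6), as 250 bases upstream of the start site, and 4 motifs were searched there on both strands. The AP-1 motif TGANTCA was in F3, against 6.75% of 32851 promoter windows. The TEAD motif GGAATG was in Acta2 and Edn1, against 12.6% of windows. The CArG box, the binding motif of SRF, was searched as CCWWWWWWGG, with W for A or T. It was in Filip1l and Asb5, against 1.47%. The E-box CACGTG, the motif of MYC and MAX, was in Dusp1 and Snhg9, against 6.02%. No motif contains another, and both windows of annotated lower genes held none of the 4. A match describes the letters only, and stretches that differ from a motif were not counted. The Acta2 window below holds ccctatatgg and ccttgtttgg, each 1 base from the CArG pattern and left in lower case. Windows of 3 genes are shown, 1 for each of AP-1, TEAD and the CArG box, 5′ to 3′ on the gene's strand with the motif in capitals, whose first base lies at -146 for F3 and Acta2 and at -62 for Filip1l from the start site. Positions are those of GRCm38.p6 and not of the table's build.
F3, chr3:121723287-121723536, plus strand: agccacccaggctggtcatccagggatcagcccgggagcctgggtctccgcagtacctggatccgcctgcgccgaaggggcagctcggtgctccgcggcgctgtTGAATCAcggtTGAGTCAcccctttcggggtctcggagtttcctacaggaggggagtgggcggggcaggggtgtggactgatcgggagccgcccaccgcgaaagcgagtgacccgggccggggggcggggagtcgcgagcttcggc
Acta2, chr19:34255374-34255623, minus strand: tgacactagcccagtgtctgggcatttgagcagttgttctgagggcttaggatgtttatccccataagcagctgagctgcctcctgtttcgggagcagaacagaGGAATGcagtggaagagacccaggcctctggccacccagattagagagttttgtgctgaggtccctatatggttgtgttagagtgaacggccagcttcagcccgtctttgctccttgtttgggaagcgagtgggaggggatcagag
Filip1l, chr16:57548992-57549241, plus strand: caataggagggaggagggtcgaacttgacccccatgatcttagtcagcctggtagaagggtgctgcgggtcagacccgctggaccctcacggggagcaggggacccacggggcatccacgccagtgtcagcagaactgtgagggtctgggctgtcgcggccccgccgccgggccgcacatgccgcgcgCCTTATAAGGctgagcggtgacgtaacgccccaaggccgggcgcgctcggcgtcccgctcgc

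The same genes can be read across the other columns at 3 h, with the limit that Omomyc and the fusion are set against the same PBS column. F3 stood at 169 FPKM with Omomyc, between PBS and FPP-1746, and at 129 FPKM with the fusion. Ctgf stood at 81.6 FPKM with Omomyc and 61.3 FPKM with the fusion, and Thbs1 at 816 FPKM and 370.4 FPKM. In F3, Ctgf and Thbs1, FPP-1746 was therefore the highest of the 4 columns at 3 h. Of the 20 higher genes, all but LOC100302567, Snhg9 and 1810044D09Rik were also above PBS with Omomyc, which lacks the carrier. The log2 ratios with Omomyc and with FPP-1746 were near each other for Cdc42ep3 (0.74 and 0.76), Filip1l (0.57 and 0.63) and Itga5 (0.55 and 0.64). They lay farther apart for Inhba (0.45 and 0.68) and Edn1 (0.44 and 0.66). Acta2 was as high with Omomyc, at 101 FPKM, as with FPP-1746, and stood at 21.7 FPKM with the fusion, below PBS. Ptgs2 and Dusp1 had another order, with 852 FPKM and 179 FPKM in the fusion, far above the 109 FPKM and 19.1 FPKM of Omomyc and the values of the carrier.

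**Figure D2:**
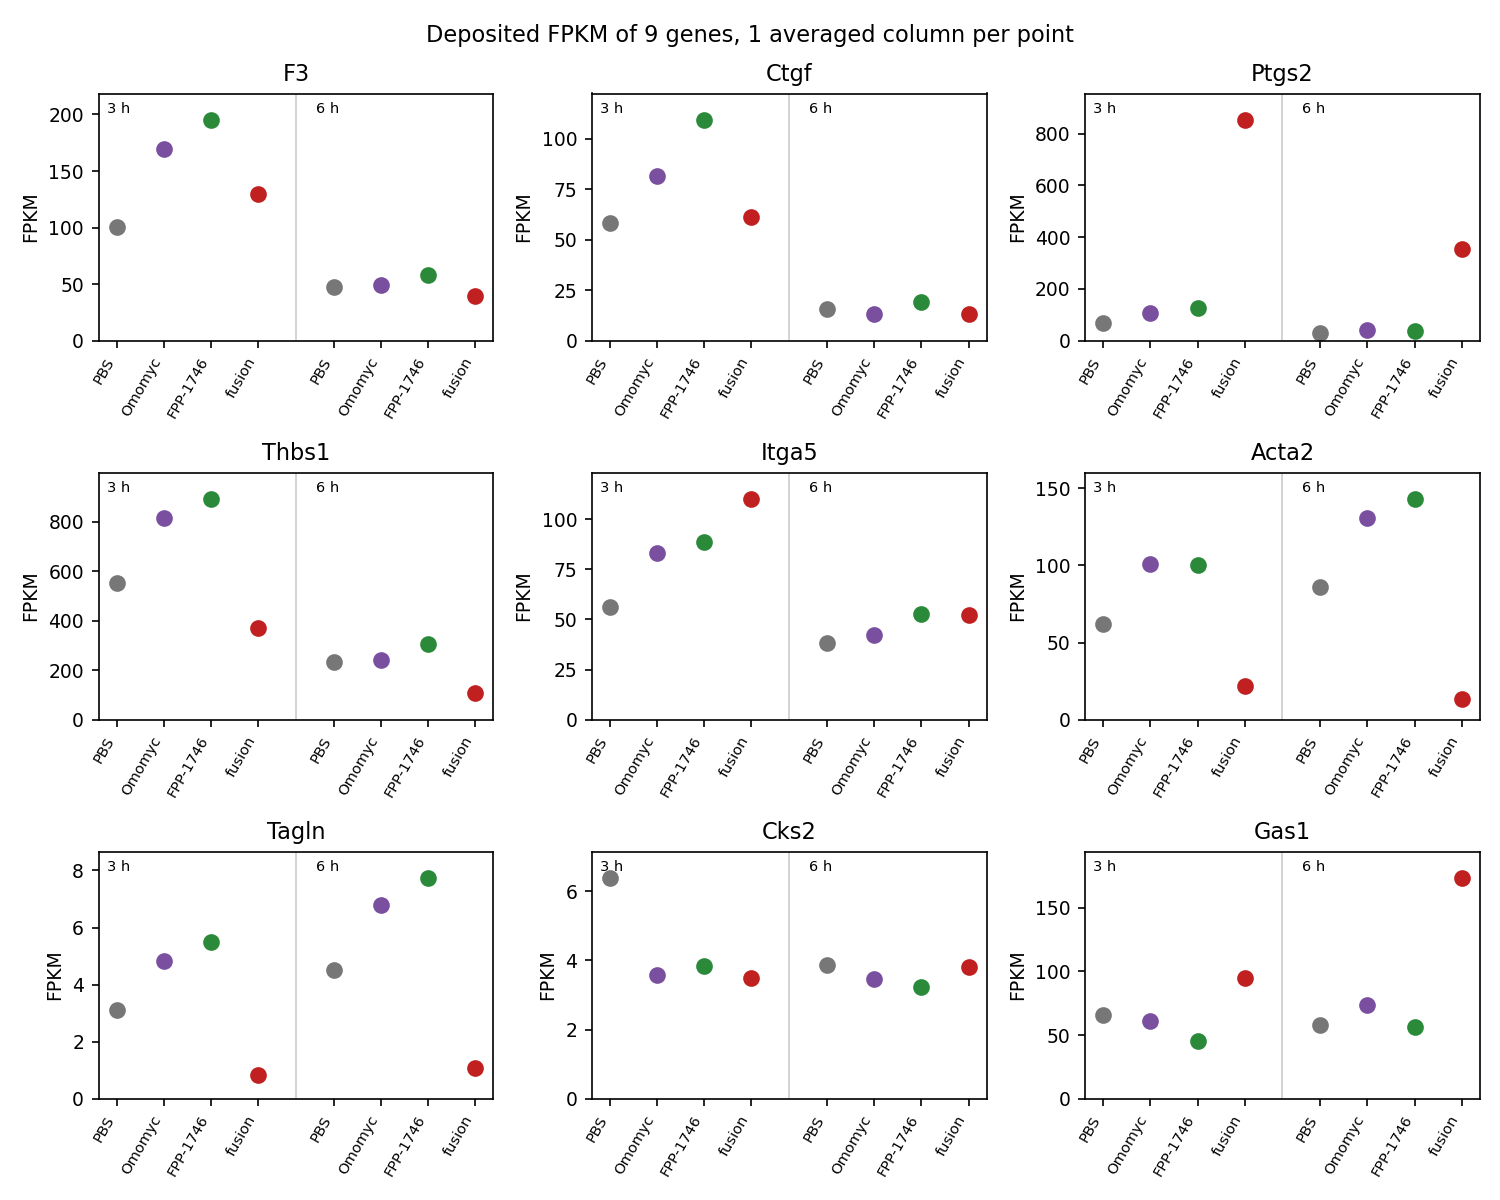
FPKM (y axis, linear, from 0) of 9 named genes in the 8 averaged columns, grouped as PBS, Omomyc, FPP-1746 and the fusion at 3 h and at 6 h (x axis), 1 point per column with no error since replicate values were not used. F3, Ctgf and Thbs1 are highest with FPP-1746 at 3 h and lower in all columns at 6 h, while Acta2 is higher than PBS with Omomyc and with FPP-1746 at both times.

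By group, the contractile genes had the highest median. This list and those below were chosen with earlier results of these data known, so their medians and ranks are a description only. Of the list of smooth muscle contractile genes and SRF targets, 19 were tested, 18 of them above 0, and the median log2 ratio was 0.29 against 0.01 over all 10122 genes. The genes past 1.5-fold were Acta2, Tagln and Filip1l, and none was past it as lower, against 0.198% higher and 0.0395% lower over all genes. Below that size stood the smooth muscle gamma-actin gene Actg2 at 0.46 (6.85 FPKM in PBS and 9.78 FPKM with FPP-1746), the vinculin gene Vcl, which links integrins to actin, at 0.44 (223 and 302 FPKM), and the myosin regulatory light chain gene Myl9 at 0.42 (6.29 and 8.78 FPKM). The non-muscle myosin heavy chain gene Myh9 stood at 0.40, Srf itself at 0.31 (155 FPKM and 193 FPKM), and the myosin light chain kinase gene Mylk was the 1 member below 0, at -0.11. Side by side, the median was 0.29 with Omomyc and -0.72 with the fusion, both against the same PBS column, so the list lay above PBS with either part alone and below it with the 2 joined.

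Of the YAP target list, 12 genes were tested, 10 above 0, with a median of 0.22. F3 and Ctgf were past 1.5-fold, and the next were the nuclear ankyrin repeat gene Ankrd1 at 0.46 (337 FPKM in PBS and 464 FPKM with FPP-1746) and the matricellular gene Cyr61 at 0.43 (404 and 544 FPKM). The list's median was -0.38 in PBS at 6 h against PBS at 3 h. Ctgf, for example, stood at 15.7 FPKM in PBS at 6 h, so the PBS level of this list moved with time by more than the carrier's difference. With Omomyc against the same PBS column at 3 h, the YAP median was 0.16. For the immediate-early, cholesterol and glycolysis lists described below, the Omomyc medians were 0.13, 0.14 and 0.09.

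The list of the TGF-beta pathway and collagen matrix had 25 tested genes, 19 above 0 and a median of 0.06. Of these, 3 were past 1.5-fold, among them Thbs1 and the ligand gene Inhba, and the ligand gene Tgfb2 followed at 0.50 (6.44 and 9.52 FPKM). Of 19 mesenchymal and claudin-low genes, 16 were above 0 with a median of 0.07. Itga5 was past 1.5-fold, the fibronectin gene Fn1, whose product Itga5 binds, stood at 0.41 (152 and 202 FPKM), and the collagen cross-linking enzyme gene Lox at 0.20. Immediate-early genes, which are transcribed within minutes of a stimulus, had 34 tested members, 25 above 0, with a median of 0.13. Ctgf and Dusp1 were past 1.5-fold, Maff, a small MAF transcription factor gene, stood at 0.41 and the Krüppel-like factor gene Klf2 at -0.32. Fos stood at 0.432 FPKM in PBS and 0.523 FPKM with FPP-1746, and the stress-induced factor gene Atf3 at 1.59 FPKM and 1.46 FPKM. With the fusion, Fos reached 170.1 FPKM, Atf3 reached 219 FPKM and the list's median was 2.77. The lists overlap: Ctgf is on the YAP and immediate-early lists, and Thbs1 is also among the genes repressed by MYC.

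Genes below PBS were few and low. Past 1.5-fold were Gm9781, the predicted gene Gm19705 (-0.82), Usmg5, a small subunit of the mitochondrial ATP synthase, and Cks2, a small partner of cyclin-dependent kinases. Usmg5, whose locus is shared, stood at 9.90 FPKM in PBS and 5.20 FPKM with FPP-1746, and Omomyc stood at 5.41 FPKM. Cks2 stood at 6.38 FPKM and 3.84 FPKM, with 3.58 FPKM for Omomyc and 3.49 FPKM for the fusion. For Cks2, PBS was thus the column that stood apart at 3 h, and PBS at 6 h stood at 3.86 FPKM, level with the carrier at 3 h. With a pseudocount of 5 none of the 4 passed 1.5-fold, at -0.55 for Usmg5, -0.46 for Gm9781, -0.36 for Cks2 and -0.29 for Gm19705. Against the mean of both PBS columns, Usmg5 (-0.54) and Cks2 (-0.34) did not pass either. Just outside the rule lay Tmem190 at -0.56. Among genes averaging 10 FPKM or more, the lowest were Gas1, a membrane protein linked to growth arrest, at 65.6 FPKM in PBS and 45.4 FPKM with FPP-1746 (-0.52), and Rn45s, the precursor of ribosomal RNA, at 138 FPKM and 96.2 FPKM (-0.51). Rn45s stood at 181 FPKM in PBS and 117 FPKM with FPP-1746 at 6 h (-0.63). Its order between carrier and PBS was the same at both times. Omomyc stood at 84.0 FPKM at 3 h, below the carrier, and at 178 FPKM at 6 h, near PBS. The fusion stood at 233 FPKM at 3 h and 999.6 FPKM at 6 h. The low value at 3 h was thus not particular to the carrier. Tpt1, a translationally controlled growth protein, stood at 72.4 and 53.005 FPKM (-0.44) and the ribosomal protein gene Rps27a at -0.51, both with a shared locus. The long nuclear RNA Neat1 stood at 7.50 and 5.25 FPKM (-0.44).

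The machinery by which peptides enter and move in cells had no member past 1.5-fold. Over all 10122 genes, the shares past it were 0.198% higher and 0.0395% lower, so nothing is read from this. Of 27 tested genes of clathrin, caveolae and macropinocytosis, 16 were above 0 with a median of 0.02, the largest ratios being those of the clathrin assembly gene Picalm and the clathrin heavy chain gene Cltc at 0.24 each. Of 33 genes of early and late endosomes and the membrane-remodelling ESCRT complexes, 16 were above 0 with a median of -0.01. Of 23 genes of heparan sulfate proteoglycans and their synthesis, 14 were above 0 with a median of 0.01, and the perlecan gene Hspg2 had the largest ratio at 0.36 (10.4 and 13.6 FPKM). The lysosome and V-ATPase list had more genes on 1 side: 32 of 37 were above 0, at a median of 0.05, with the lysosomal channel gene Mcoln1 at 0.20. The list of membrane repair and annexins had 16 of 17 above 0 at a median of 0.04, with the lipid scramblase gene Ano6 at 0.20. Of 27 autophagy genes, 13 were above 0 and the median was -0.01.

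Stress and inflammatory lists lay near the median of all genes. Of 24 genes of the integrated stress response, the program run by ATF4, 20 were above 0 with a median of 0.07, led by the glutathione-degrading enzyme gene Chac1 at 0.31, the arginine transporter gene Slc7a1 at 0.27 and the pseudokinase gene Trib3 at 0.25. Of 21 genes of the unfolded protein response, 19 were above 0 with a median of 0.07, with Herpud1 at 0.27 and its transcription factor gene Xbp1 at 0.26. The heat-shock list had 13 of 17 above 0 and a median of 0.05, the NRF2 list of oxidative stress 13 of 22 and 0.01, and the metal response 3 of 7 and -0.02. None of these had a member past 1.5-fold, where 0.198% of all genes were higher and 0.0395% lower. With the fusion, the integrated stress response list had a median of 0.66 against the same PBS column.

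In the NF-kB and inflammatory cytokine list, 6 of 20 tested genes were above 0 and the median was -0.05. Its members went both ways, with Ptgs2 at 0.87 and the chemokine genes Ccl2, which attracts monocytes, at -0.44 (13.2 FPKM in PBS and 9.48 FPKM with FPP-1746) and Cxcl5, which attracts neutrophils, at -0.39 (25.2 and 18.9 FPKM). The signalling adaptor gene Traf1 stood at -0.37. With the fusion Ccl2 reached 70.5 FPKM and the list's median was 1.07. Of 27 genes on the list of interferon response and nucleic acid sensing only 10 were expressed enough to be tested, 5 of them above 0, with a median of 0.02 and Oasl1 at 0.35 as the largest ratio. In the p53 list, 7 of 15 were above 0 at a median of -0.01, and the cell-cycle inhibitor gene Cdkn1a stood at 2.67 FPKM in PBS, 2.63 FPKM with FPP-1746 and 26.5 FPKM with the fusion. In the BCL2 family and apoptosis list, 5 of 19 were above 0 at a median of -0.03.

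Myc and its targets differed little between carrier and PBS. Myc stood at 161 FPKM in PBS, 166 FPKM with Omomyc, 170.2 FPKM with FPP-1746 and 422 FPKM with the fusion, and its partner Max at 57.6 FPKM in PBS and 58.6 FPKM with FPP-1746. Of 11 tested genes of the MYC, MAX, MXD and MLX network, 7 were above 0 with a median of 0.04, from the MAX partner gene Mga at 0.26 to the MYC antagonist gene Mxd3 at -0.26. Of 40 genes activated by MYC, 21 were above 0 with a median of 0.00, and of 16 genes repressed by MYC, 8 were above 0 with a median of -0.01. Among the repressed genes, Thbs1 was past 1.5-fold and the growth arrest gene Gadd45a stood at 0.44. The BET and P-TEFb list had 4 of 9 above 0 and a median of 0.00, and the circadian clock list 9 of 13 and 0.06, with the clock gene Per1 at 0.38.

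The 4 cell-cycle and histone lists were likewise near 0 with no member past 1.5-fold, against 0.198% higher and 0.0395% lower over all genes. Cks2, described above as lower, is on none of them. Of 26 genes of mitosis and cytokinesis, 11 were above 0 with a median of 0.00, while the fusion had a median of -0.72 against the same PBS column. Of 31 genes of DNA replication and G1/S, 13 were above 0 with a median of -0.02. Of 14 G1 cyclins, kinases and inhibitors, 2 were above 0 with a median of -0.02, and the cyclin D1 gene Ccnd1 stood at 270.2 FPKM in PBS and 228 FPKM with FPP-1746 (-0.24). The histone list had 4 of 14 above 0 and a median of -0.03.

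Metabolic lists had small medians above 0. Of 20 genes of cholesterol synthesis and uptake, 19 were above 0 with a median of 0.11, with the sterol enzyme genes Hsd17b7 at 0.26 and Cyp51 at 0.24. Of 19 genes of glycolysis and hypoxia, 17 were above 0 with a median of 0.12, led by the glucose transporter gene Slc2a1 at 0.40 (101 and 134 FPKM), the hexokinase gene Hk2 at 0.27 and the phosphofructokinase gene Pfkp at 0.25. The fatty acid and phospholipid list had 12 of 21 above 0 and a median of 0.04, and oxidative phosphorylation 28 of 42 and 0.03. Of 69 cytosolic ribosomal protein genes, 35 were above 0 with a median of 0.00, yet single members stood far out: Rps10 at 0.53 (62.1 FPKM in PBS and 90.3 FPKM with FPP-1746), Rps27a at -0.51 and Rpl35a at -0.39. Small nucleolar RNA host genes had 2 of 11 above 0 and a median of -0.09, with Snhg5 at -0.36 and Snhg9 past 2-fold as higher. In all, 20 of the 35 lists had a median above that of all genes, 5 had a median at least 0.1 from 0, and 12 of the 20 higher genes and none of the 4 lower genes were on a list, as were 760 (7.51%) of all 10122 genes. The lists were chosen with earlier results of these data known, so nothing is read from that count.

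**Figure D3:**
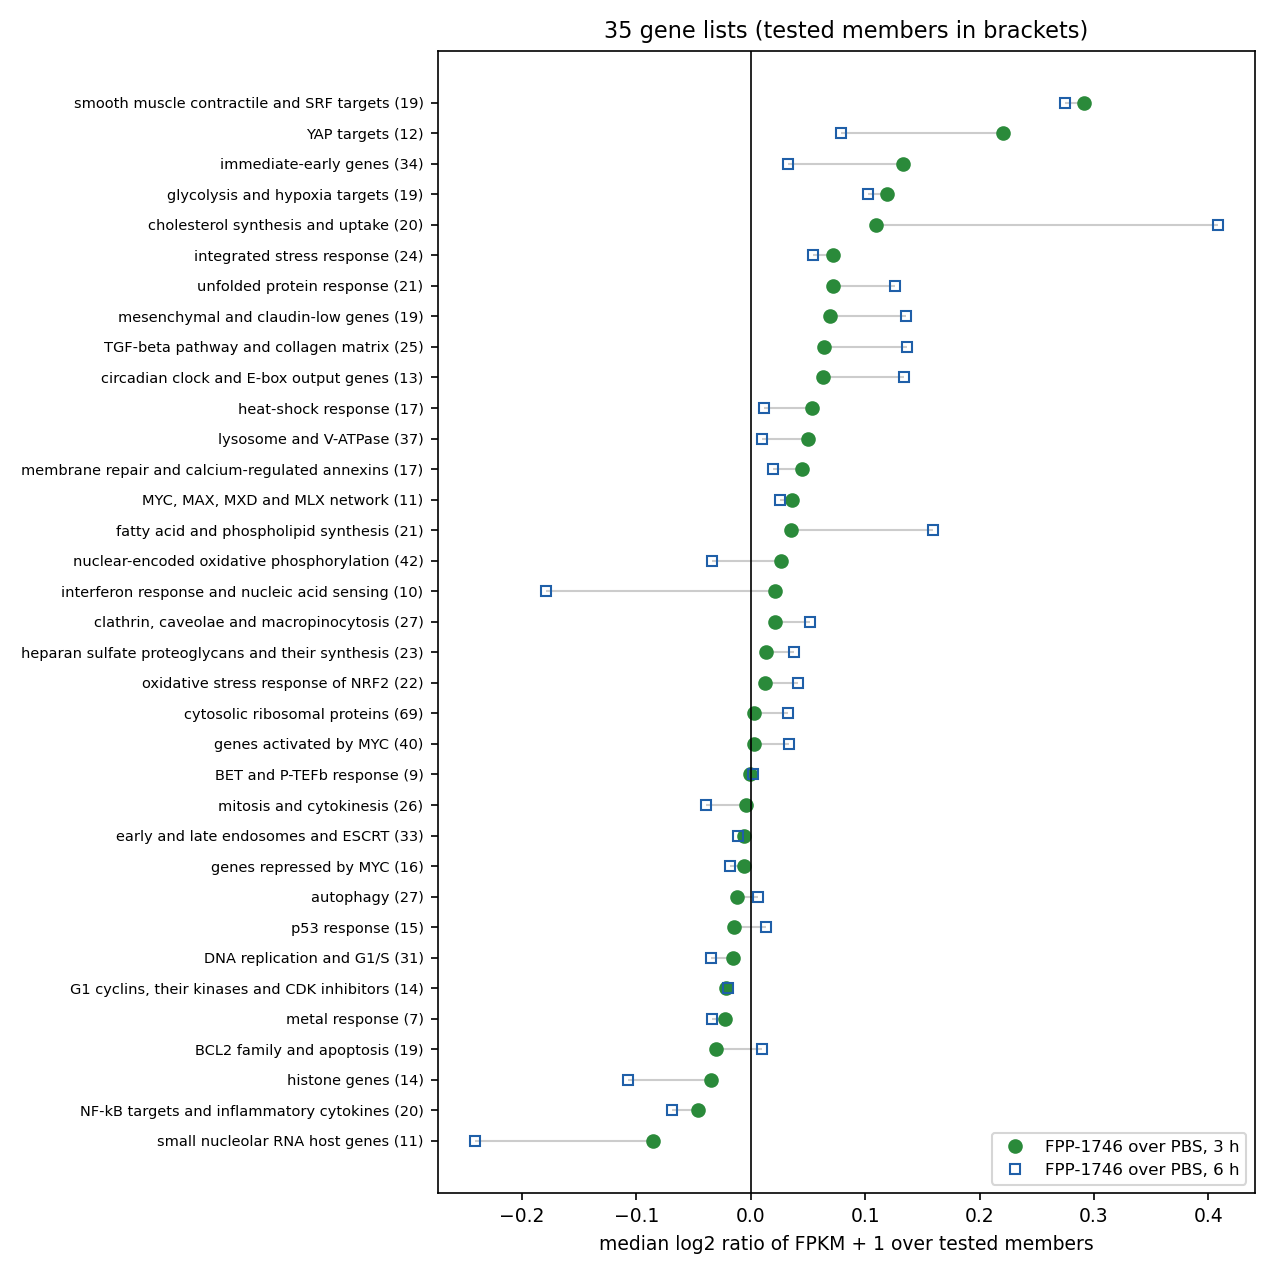
Median log2 ratio of FPKM + 1 over PBS of the same time (x axis) for each gene list with at least 5 tested members (y axis, tested members in brackets), with filled circles for FPP-1746 at 3 h and open squares for FPP-1746 at 6 h. The contractile and YAP lists have the highest medians for FPP-1746 at 3 h, at 0.29 and 0.22, and most other lists lie within 0.1 of 0.

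The 6 h columns of FPP-1746 and PBS share no sample with the 3 h columns and show which differences recurred. Of the 20 genes at least 1.5-fold higher at 3 h and the 9 at 6 h, 4 were on both lists, among them Acta2, Tagln and LOC100302567. They are 20% of the first list and 44.4% of the second. Of all 10122 genes, 0.198% were on the first and 0.0889% on the second. Acta2 stood at 86.2 FPKM in PBS and 143 FPKM with FPP-1746 at 6 h (0.72) and Tagln at 4.496 and 7.74 FPKM (0.67). Both genes had a log2 ratio at 6 h at least as large as at 3 h. Omomyc stood at 131 FPKM for Acta2 and 6.80 FPKM for Tagln at 6 h, above PBS. The fusion stood below PBS at 6 h for both, at 13.5 and 1.07 FPKM.

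Most of the other higher genes kept their side of 0 at smaller size. At 6 h, 17 of the 20 were above 0, against 52.6% of all 10122 genes. The median log2 ratio of the 20 was 0.27, against 0.01 over all genes. F3 stood at 47.8 FPKM in PBS and 58.3 FPKM with FPP-1746 at 6 h (0.28), Ctgf at 15.7 and 19.0 FPKM (0.25), and Ptgs2 at 29.4 and 35.7 FPKM (0.27). Thbs1 stood at 231 and 307 FPKM (0.41) and Itga5 at 38.4 and 52.5 FPKM (0.44). The PBS level of each of these genes was lower at 6 h than at 3 h, as for most annotated higher genes. The log2 ratio of PBS at 6 h over PBS at 3 h was -1.45 for Asb5, -1.26 for Edn1, -1.25 for Thbs1 and -0.89 for Metrnl. It was above 0 for Acta2, Tagln and Snhg9. Over all 10122 genes, 1.6% were 1.5-fold lower in PBS at 6 h. The part of this change with time in the carrier's differences was not tested. None of the 4 genes called lower at 3 h was among the 13 called lower at 6 h. Those 13 are only 0.128% of all genes, so nothing is read from this. At 6 h, 3 of the 4 were below 0.

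Across 10122 genes, the FPP-1746 ratios at 3 h and at 6 h had a Pearson r of 0.35 and a Spearman rho of 0.26, and among the 6217 genes averaging 10 FPKM or more the values were 0.40 and 0.34. The 3 h ratios of FPP-1746 set against the 6 h ratios of Omomyc, again with no shared column, gave 0.27 and 0.23 over all genes and 0.26 and 0.28 from 10 FPKM. Genes are not independent replicates, and these values are a description. By list, the contractile median was 0.29 at 3 h and 0.27 at 6 h, the YAP median 0.22 and 0.08, and the cholesterol median 0.11 and 0.41. Among cholesterol genes the mevalonate enzyme gene Mvd stood at 0.17 at 3 h and 0.65 at 6 h. The contractile list was therefore about as far from PBS at both times, the YAP list nearer to it at 6 h and the cholesterol list farther from it.

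**Figure D4:**
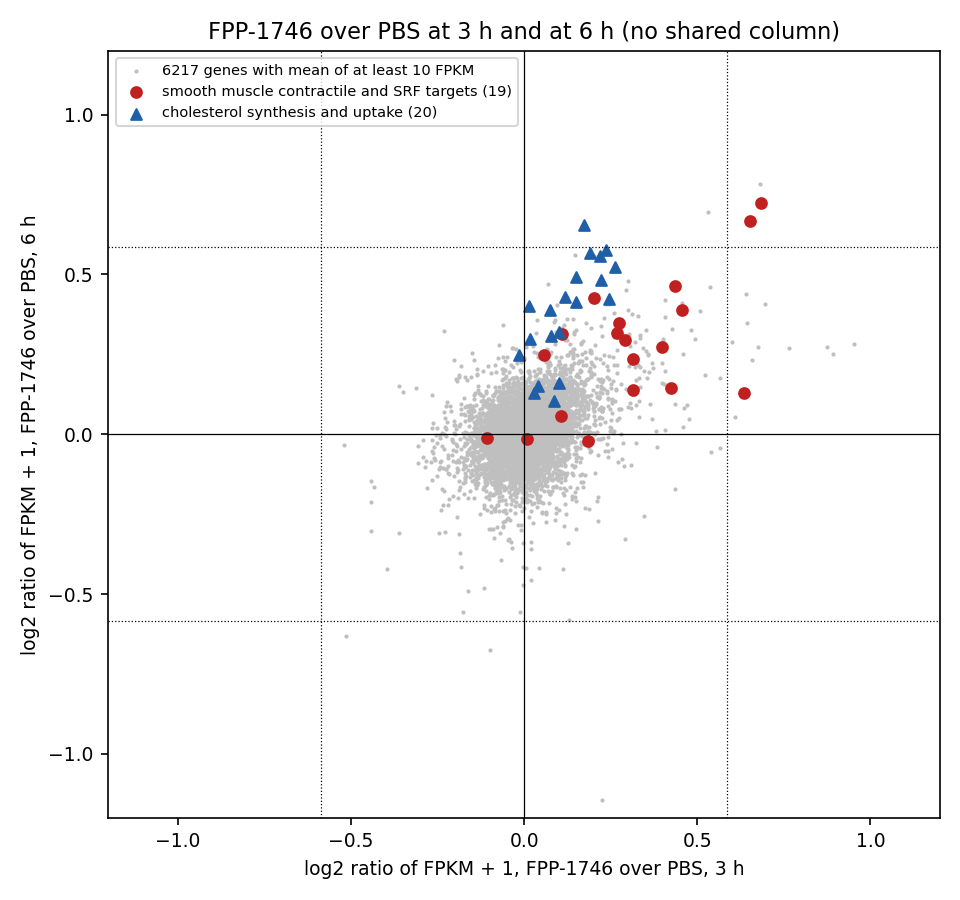
Log2 ratio of FPKM + 1, FPP-1746 over PBS, at 3 h (x axis) and at 6 h (y axis), for 6217 genes averaging 10 FPKM or more (grey) and all tested members of the contractile (19, red circles) and cholesterol (20, blue triangles) lists, with dotted lines at 1.5-fold. Contractile genes lie to the upper right, with Acta2 and Tagln past 1.5-fold at both times, and cholesterol genes lie higher at 6 h than at 3 h.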

How the data were processed

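The authors deposited 1 table of FPKM values with 1 averaged column for each of 8 groups of 3 samples. Per the submitters' processing notes, the tools were Cufflinks and Cuffnorm, both version 2.2.1, STAR 2.1.3 and bcl2fastq 2.17.1.14, with the mouse build mm9. No order, settings, library scaling or use of strand is given in the sources used here, so overlapping genes cannot be told apart. Positions are those of the table, with starts shifted to count from 1. A total of 25 symbols were calendar dates and 4163 genes had a locus shared with another gene. Not every such gene is marked above: Gadd45a, Mxd3, Pfkp, Rusc2 and Gm20571 are among those that are not.

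From these values, log2 ratios of FPKM + 1 were computed for genes averaging 1 FPKM or more, with size rules of 2-fold and 1.5-fold and no test. Small RNA records were recognised by symbol. The 40 gene lists (5 of them markers with too few tested members for a median) and the members were chosen with earlier results of these data known. Named were genes past 2-fold outside small RNA records, the 12 highest and 12 lowest annotated genes, the 8 highest and 8 lowest from 10 FPKM, up to 3 members of each list, Myc, Max, Cdkn1a, Fos and Atf3, and 3 small RNA records at each end. All genes past 1.5-fold, the genes next to that threshold, further list members and the other small RNA records were named after their values were seen. A few genes that this rule selects are not reported here. Depth was estimated from 797 genes with a single transcript of at least 3000 bases, 42 of them inside the range searched with FPP-1746 and 35 with PBS. The alternatives were other pseudocounts, other filters, upper quartile scaling, quantile normalisation, small RNA records left out and the mean of both PBS columns as reference. The scripts were tested on simulated data. Python 3.11.15, pandas 2.3.3, numpy 2.4.6 and matplotlib 3.10.9 were used.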

Additional observations from a re-analysis of the deposited data

How the results depend on the processing

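No paired analysis was possible because the columns are group averages without replicate values, and for the same reason no replicate could be left out. Counts in this part are of genes outside small RNA records unless stated, and where a count moved the cause was not tested. With a pseudocount of 0.1, 4 genes were 2-fold higher, 3 lower, and 35 and 22 passed 1.5-fold. With a pseudocount of 5 the numbers were 1, 0, 10 and 0. Without a filter, 4 were 2-fold higher, 2 lower and 8 were 1.5-fold lower. With a mean of at least 5 FPKM these were 1, 0 and 1. Leaving small RNA records out of the full counts gave 2 and 1 at 2-fold and 20 and 4 at 1.5-fold. Against the mean of both PBS columns, 14 genes were 2-fold higher and 0 lower, 82 and 55 passed 1.5-fold, and the full counts were 114 and 106. That reference mixes 3 h and 6 h. PBS at 6 h against PBS at 3 h alone had 182 genes 1.5-fold higher and 162 lower. With that reference the medians of the YAP (0.40), immediate-early (0.29), cholesterol (0.23), integrated stress response (0.22), MYC network (0.20) and NRF2 (0.12) lists moved by at least 0.1. No other list median moved by that much under any alternative run, and no named gene that was called changed sign. Among named genes, 14 lost the 1.5-fold call with a pseudocount of 5 and 6 against the mean of both PBS columns, and Asb5 lost it under both scalings.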

Other observations

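Below the 1.5-fold rule, 2 further genes had a like ratio at both times, and they are named here after their values were seen. Rps10, a protein of the small ribosomal subunit, stood at 62.1 FPKM in PBS and 90.3 FPKM with FPP-1746 at 3 h, and at 54.0 and 87.9 FPKM at 6 h, log2 ratios of 0.53 and 0.69. Plau, the urokinase gene, stood at 5.45 and 8.36 FPKM at 3 h and 2.37 and 3.92 FPKM at 6 h (0.54 and 0.55).

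Ccl5, a chemokine gene that attracts T cells, had opposite orders at the 2 times. It stood at 30.3 FPKM in PBS and 35.6 FPKM with FPP-1746 at 3 h, and at 81.5 and 36.3 FPKM at 6 h, where Omomyc stood at 77.5 FPKM and the fusion at 74.6 FPKM. The carrier column at 6 h was therefore the one that stood apart from the others of that time. With no replicate values, neither order has a replicate check.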
